A study of Homo sapiens with 8 samples.

Results

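Internal exons, those with another exon of the same transcript on either side, carried 4312 of the 38834 m6A peaks listed for HL60/ADR (11.1%, 95% Wilson interval 10.8 to 11.4) and 4713 of the 40550 listed for HL60 (11.6%, 11.3 to 11.9). A peak was counted here when its annotation named an exon that was neither the first nor the last of its transcript. Peaks of genes whose symbol starts with LINC were left out, 143 in HL60/ADR and 89 in HL60. HL60 is an established human promyelocytic leukemia line. HL60/ADR is its derivative, selected with stepwise rising doses of Adriamycin (doxorubicin, ADR) up to 0.5 μg/ml and kept without the drug for a week before the experiments. ADR is an anthracycline that traps topoisomerase II on DNA. Both lines were grown in the same medium, to which ADR was added for HL60/ADR until that week, and HL60/ADR stands for 1 selected derivative. MeRIP-seq enriches fragmented poly(A) RNA with an m6A antibody (the IP libraries) and sequences it along with a portion set aside beforehand (the input libraries). Each line gave 2 IP and 2 input libraries, 8 in all. The HL60/ADR libraries carry that name only in their titles and file columns, while their labels for source and cell line read HL60, and every comparison rests on the titles. The peaks come as 1 list per line over both replicates, so a peak has 1 fold enrichment (IP over input) per line and no spread between replicates. Differences in peaks between the lines are therefore given with no p-value, and the Wilson intervals cover counting error only. Expression was measured per input library in FPKM, a fragment count scaled to transcript length and library size.

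N6-methyladenosine is written into mRNA by a complex built around METTL3 and METTL14, removed by FTO and ALKBH5, and read by proteins of the YTH and IGF2BP families. It is known to gather around stop codons, in 3′ UTRs and in unusually long internal exons. Most internal exons are short, and the exon junction complexes that splicing leaves near their ends are known to keep the writer away from flanking RNA. A mark in the body of a coding transcript can act on splicing, translation and decay.

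The internal exon peak of NUP214, which encodes a nucleoporin on the cytoplasmic face of the nuclear pore, is shown first because NUP214 was chosen in the study for a PCR check of immunoprecipitated RNA. The study chose it as a gene with differential m6A, and its supplement lists an exon peak that was lower in HL60/ADR. Whether that is the peak described here was not determined. The peak lay in exon 29 of 36 on chromosome 9 (GRCh38), from 131197296 to 131198704 in HL60/ADR and from 131197296 to 131198495 in HL60. It was 1 unbroken block of 1409 bases in HL60/ADR and of 1200 bases in HL60. Its fold enrichment was 4.47 in HL60/ADR and 3.87 in HL60, a ratio of 1.16. The transcript stood at 4.21 and 4.29 FPKM in the HL60/ADR libraries, against 12.9 and 12.2 FPKM in the HL60 libraries. The groups did not overlap, and the log2 fold change was -1.37 ± 0.04 (SE, n = 2 per line; limma adjusted p = 3.04e-05). NUP214 also had 3′ UTR peaks in both lines, the strongest at 4.49 in HL60/ADR and at 4.02 in HL60. The list of HL60 also held a stronger NUP214 peak from 131230070 to 131230399, in exon 1 of 2 of another transcript and so not an internal exon, with 17.7, one of the repeated step values described further on with the unmatched peaks. The primers designed for that PCR check are given because they show what was amplified from NUP214. The place of the NUP214 primers relative to the peak was not determined, and primers for the expression of m6A enzymes are not shown.
NUP214 forward primer: caccagcacttcctcaac
NUP214 reverse primer: gccagcacttagagatgtc

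Genes with an internal exon peak numbered 2905 in HL60/ADR (19.0% of genes with any peak) and 3129 in HL60 (20%). Of these, 1759 had one in both lines, 60.6% of the HL60/ADR genes and 56.2% of the HL60 genes. Among the 1146 genes with one in HL60/ADR alone, 787 had some other peak in HL60. Among the 1370 genes with one in HL60 alone, 962 had some other peak in HL60/ADR. RefSeq held a gene for 90.2% of the HL60/ADR peaks and 92.2% of the HL60 peaks, and 79.2% and 83.2% of all members belonged to protein-coding genes in those lines. Long non-coding RNA genes held 238 peaks in HL60/ADR and 194 in HL60, and pseudogenes held 218 in HL60/ADR and 207 in HL60. For 501 peaks of HL60/ADR (11.6%) and 476 of HL60 (10.1%), the annotated exon belonged to another gene than the one named for the peak. The median peak lay in exon 5 of a transcript of 12 exons in HL60/ADR and in exon 6 of 13 in HL60 (medians taken separately). The second exon held 20.4% of the members in HL60/ADR and 18.4% in HL60, and the exon before the last held 21.4% in HL60/ADR and 18% in HL60. More than 1 exonic block, meaning a peak that runs across a splice junction, was found in 56.9% of the HL60/ADR peaks (55.5 to 58.4) and 60.7% of the HL60 peaks (59.3 to 62.1). In 3′ UTRs that share was 34.7% in HL60/ADR and 34.8% in HL60. The median exonic length of a member was 330 bases in each line.

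Internal exon peaks were the weakest class. Their median fold enrichment was 4.30 in HL60/ADR (quartiles 2.21 and 7.54) and 3.07 in HL60 (1.90 and 5.52). Peaks of 3′ UTRs had medians of 4.98 in HL60/ADR and 3.53 in HL60, and peaks of single-exon transcripts, the strongest class, 7.09 in HL60/ADR and 6.07 in HL60. These values were higher in genes of low expression. Members of genes that averaged under 0.5 FPKM in HL60/ADR had a median of 7.09 there, against 1.92 in genes at 20 FPKM or more. Restricted to genes averaging at least 1 FPKM in each line, internal exon peaks had medians of 2.75 in HL60/ADR and 2.34 in HL60, still below the 4.05 and 3.0 of 3′ UTR peaks in those lines. Within single genes the order was the same more often than not. Of the 1695 HL60/ADR genes with both kinds of peak, the strongest internal exon peak was below the strongest 3′ UTR peak in 1143 (67.4%), with a median log2 ratio of -0.60. In HL60 this held for 1282 of 1944 genes (65.9%), with a median log2 ratio of -0.44. Internal exon peaks were the only peaks of 609 genes in HL60/ADR and 594 genes in HL60.

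**Figure D1:**
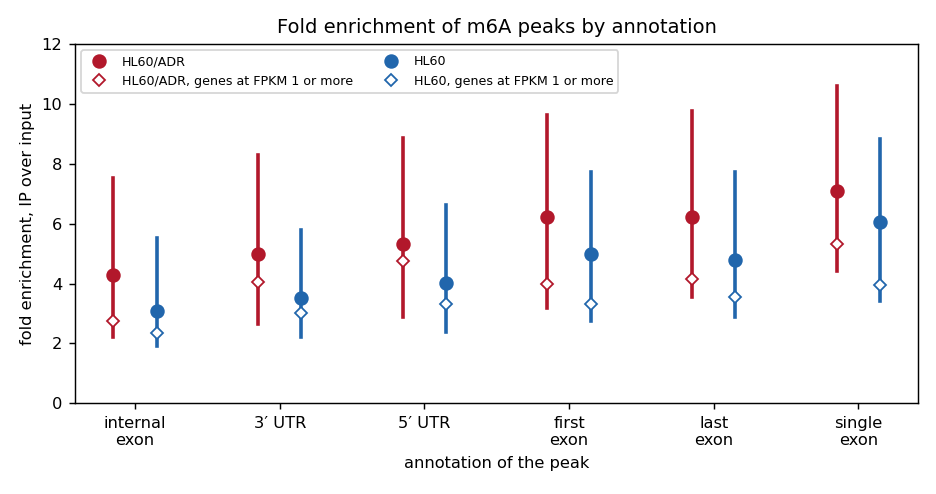
Fold enrichment (IP over input, linear axis) of m6A peaks by annotation, HL60/ADR left of HL60. Filled circles are medians over all peaks with bars from the lower to the upper quartile, and open diamonds are medians over peaks in genes averaging at least 1 FPKM in each line. Internal exon peaks had the lowest medians, 4.30 in HL60/ADR and 3.07 in HL60.

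The median fold enrichment was higher where a peak covered a longer stretch of exon. The longest exonic block of a peak is the longest part of it that lies within 1 exon. Among genes at 1 FPKM or more in both lines, members with a longest block under 200 bases had a median fold enrichment of 1.77 in HL60/ADR (957 peaks) and 1.65 in HL60 (1324 peaks). Members with a block of 1000 bases or more had medians of 7.31 in HL60/ADR (193 peaks) and 5.29 in HL60 (197 peaks). The median rose with each step of block length in both lines, and it did so in 3′ UTRs as well, where peaks with blocks of 1000 bases or more had medians of 8.86 in HL60/ADR and 5.64 in HL60. A caller gives wider peaks where enrichment is strong, so length and strength are not independent measures. Exons that lay whole inside a peak had a median length of 127 bases in HL60/ADR (1611 exons) and 126 bases in HL60 (2671 exons), so the long blocks came from exons far longer than that. Peaks in long blocks were also shared more often. Sharing needed only 1 common base, which a long peak meets more easily, so length and sharing are not independent either. Of the members with blocks of 1000 bases or more in these genes, 98.4% in HL60/ADR (95.5 to 99.5) and 97.0% in HL60 (93.5 to 98.6) overlapped a peak of the other line. For blocks under 200 bases the shares were 69.6% in HL60/ADR (66.6 to 72.4) and 40.3% in HL60 (37.6 to 42.9). Peaks of 3′ UTRs went the same way, from 53.7% in HL60/ADR and 56.3% in HL60 for the shortest blocks to 99.9% and 98.8% for the longest.

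**Figure D2:**
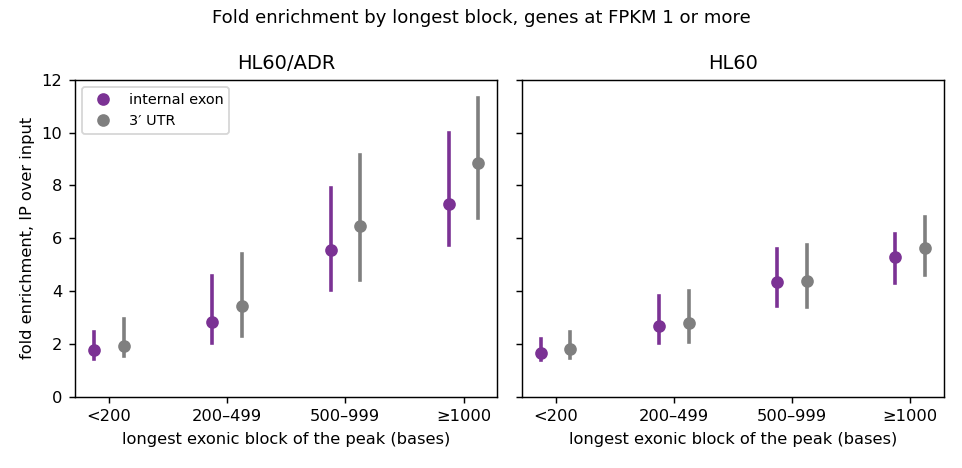
Fold enrichment (IP over input) against the longest exonic block of a peak in bases, for genes averaging at least 1 FPKM in each line, HL60/ADR on the left and HL60 on the right. Circles are medians and bars run between the quartiles. Medians of internal exon peaks climbed from the shortest to the longest blocks in each line, to 7.31 in HL60/ADR and 5.29 in HL60, beside a like climb in 3′ UTRs.

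The 5 longest blocks matched between the lines lay in the large exons of KIAA0232, RIF1, SPEN, KMT2D and CRYBG3. The longest, in exon 7 of 10 of KIAA0232 (chromosome 4, 6860922 to 6871603), covered 3262 bases in each line at a fold enrichment of 7.26 in HL60/ADR and 5.19 in HL60. RIF1, a regulator of replication timing and double-strand break repair, had a block of at least 3089 bases in exon 30 of 35 (chromosome 2, from 151463008 to 151466096 in HL60/ADR), with 7.73 in HL60/ADR and 5.05 in HL60. SPEN, a large RNA-binding corepressor, gave 8.18 in HL60/ADR and 5.44 in HL60 in the exon numbered 10 of 12. KMT2D, a histone H3 lysine 4 methyltransferase, gave 10.5 in HL60/ADR and 5.81 in HL60. CRYBG3, an actin-binding crystallin-domain protein, gave 7.49 in HL60/ADR and 5.59 in HL60 in exon 4 of 22. All 5 were higher in HL60/ADR, by 1.34- to 1.81-fold. So were 87 of the 100 matched internal exon pairs with blocks of 1000 bases or more in both peaks, and 92.2% of such 3′ UTR pairs. The transcript of RIF1 was lower in HL60/ADR, with 4.72 and 4.71 FPKM against 11.8 and 11.7 FPKM in HL60 (log2 fold change -1.16 ± 0.03, SE, n = 2 per line; limma adjusted p = 2.45e-05). That of CRYBG3 stood at 2.66 and 2.82 FPKM in HL60/ADR and at 2.61 FPKM in both HL60 libraries, with no call (log2 fold change 0.05, limma adjusted p = 0.403).

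Among genes at 1 FPKM or more, the strongest internal exon peak of HL60/ADR lay in exon 7 of 8 of CRACD, a regulator of actin capping (chromosome 4, 56313379 to 56315148), at 578. CRACD was expressed at 2.69 and 2.88 FPKM in HL60/ADR, against 0.419 and 0.299 FPKM in HL60. The next 4 were in PPP1R12C, a regulatory subunit of myosin phosphatase (106), PFKL, the liver subunit of phosphofructokinase (61.2), RCSD1, a partner of actin capping protein (56.8), and TPST1, a tyrosine sulfotransferase (48.8). The TPST1 peak fell in an exon annotated to LINC00174. In HL60, the strongest was in exon 9 of 11 of the tyrosine phosphatase gene PTPN18 (chromosome 2, 130372177 to 130372808), with 50.8. GOLGA8O followed with 49.1, then 2 rows for SLX1A-SULT1A3 with 30.9 and 27.6, and SPON2, a secreted matrix protein, with 25.4. GOLGA8O and SLX1A-SULT1A3 belong to families with near-identical copies, so the gene behind their reads is uncertain. Apart from CRACD (1109 bases) and SPON2 (731 bases), the longest blocks of these peaks were 108 to 470 bases, so the strongest single peaks were not those with the longest blocks. The values of SLX1A-SULT1A3 and SPON2 lay on whole steps, as explained further on with the unmatched peaks. Only values up to 40 steps were examined for this. The values of CRACD, PPP1R12C, PFKL, RCSD1, TPST1, PTPN18 and GOLGA8O lay above that range, so whether they are step values was not tested.

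Some genes held many internal exon peaks. JPX, a long non-coding RNA, had the most in HL60/ADR, 15, against 10 in HL60. The giant muscle gene TTN had 14 in HL60/ADR, against 13 in HL60. TTN was at most 0.044 FPKM in any library, and 13 of its 14 HL60/ADR values lay on whole steps. Another gene was named for 7 of the 14 exons, so its peaks are doubtful. The reads behind them were not counted. RNF213, a giant ubiquitin ligase, had 11 in HL60/ADR and 8 in HL60. FAT1 (an atypical cadherin) and PCNT (pericentrin, of the centrosome) had 10 each in HL60/ADR and 8 each in HL60. STARD9, a mitotic kinesin, had 10 in HL60/ADR and 12 in HL60, all within exons 19 to 23 of 33. DST, a cytoskeletal linker, had 8 in HL60/ADR and 13 in HL60. FAT1 and PCNT were both called lower in HL60/ADR: FAT1 at 1.55 and 1.31 FPKM, against 5.54 and 5.59 FPKM in HL60, and PCNT at 1.98 and 1.70 FPKM, against 7.76 and 7.44 FPKM in HL60. Their limma adjusted p values were 8.12e-05 for FAT1 and 5.94e-05 for PCNT. In all, 838 genes of HL60/ADR and 940 of HL60 had 2 or more internal exon peaks.

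A peak of the other line overlapped 72.0% of the HL60/ADR members (70.6 to 73.3) and 60.9% of the HL60 members (59.5 to 62.3), counted by shared exonic bases. Over all peaks these shares were 72.9% in HL60/ADR and 71.3% in HL60, so the HL60 members were matched less often than HL60 peaks at large. With stricter peaks (false discovery rate of at most 1e-05 and fold enrichment of 4 or more) the order of the lines turned, to 57.8% in HL60/ADR and 74.7% in HL60. Members with no counterpart had a median fold enrichment of 4.94 in HL60/ADR and 2.25 in HL60, and the genes that held them had a median FPKM of 0.974 in HL60/ADR and 3.59 in HL60. Their false discovery rate was over 0.05 for 37.5% in HL60/ADR and 32.7% in HL60, against 10.5% and 12.1% of the matched members. Of all members, 82% in HL60/ADR and 79.8% in HL60 were at 0.05 or below, near the 84.1% and 80.1% of all peaks. Many fold enrichments repeat as whole multiples of 1 step, 0.887 in HL60/ADR and 1.10 in HL60. Such values made up 45.0% of the unmatched members in HL60/ADR and 22.3% in HL60, against 19.9% of the matched members in HL60/ADR and 13.1% in HL60. Not every match was to another internal exon peak. Among matched members, 76.9% in HL60/ADR and 80.1% in HL60 overlapped a member of the other line, and the rest only peaks that were not members.

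The 5 strongest unmatched members per line, in genes at 1 FPKM or more in both, all lay on whole steps. In HL60/ADR they were in CYTH3, an activator of ARF GTPases (19.5), FP565260 (19.5), ANKRD36B (16.8), HIF1A, the oxygen-regulated subunit of HIF-1 (16.8), and CEP295, a centriole protein (14.2). The HIF1A peak fell in an exon annotated to its antisense gene HIF1A-AS3, and whether the calling used strand is not stated, so the pair cannot be told apart. In HL60 they were in STAG3L3 (19.9), RDX, the membrane linker radixin (18.8), NPIPA1 (18.8), LRRC37A2 (18.8) and HAGH, a glyoxalase (17.7). The RDX and NPIPA1 peaks fell in exons annotated to ZC3H12C and PKD1P3. FP565260, ANKRD36B, STAG3L3, NPIPA1 and LRRC37A2 have near-identical copies elsewhere in the genome, so their reads may be shared.

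Where a member of one line overlapped exactly 1 member of the other and the reverse, the peaks were taken as a pair, and 1619 pairs were found. The median ratio of fold enrichment was 1.07 (log2 0.10), and 903 pairs (55.8%) were higher in HL60/ADR. More than 2-fold higher in HL60/ADR were 199 pairs (12.3%, 10.8 to 14.0), against 19.0% of the 16544 pairs of all classes. More than 2-fold lower were 87 (5.37%, 4.38 to 6.58), against 4.81% of all pairs. Without peaks on whole steps, 7.66% were more than 2-fold higher and 3.36% lower, and in genes averaging at least 1 FPKM in each line 7.33% were higher. The median log2 ratio over all pairs was 0.35, and over 3′ UTR pairs 0.42. The lists were scaled separately, and once ratios were divided by the median of all pairs the split turned, with 6.30% of the member pairs more than 2-fold higher and 13.7% more than 2-fold lower in HL60/ADR. Internal exon pairs thus lay below the general shift towards HL60/ADR. The gap to 3′ UTRs was also present within genes. In the 554 genes at 1 FPKM or more in both lines that held both kinds of pair, the median log2 ratio was 0.03 for internal exon pairs and 0.39 for 3′ UTR pairs, and the internal exon value was the lower one in 391 genes (70.6%, 66.7 to 74.2). No test between the lines is possible with 1 list per line.

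**Figure D3:**
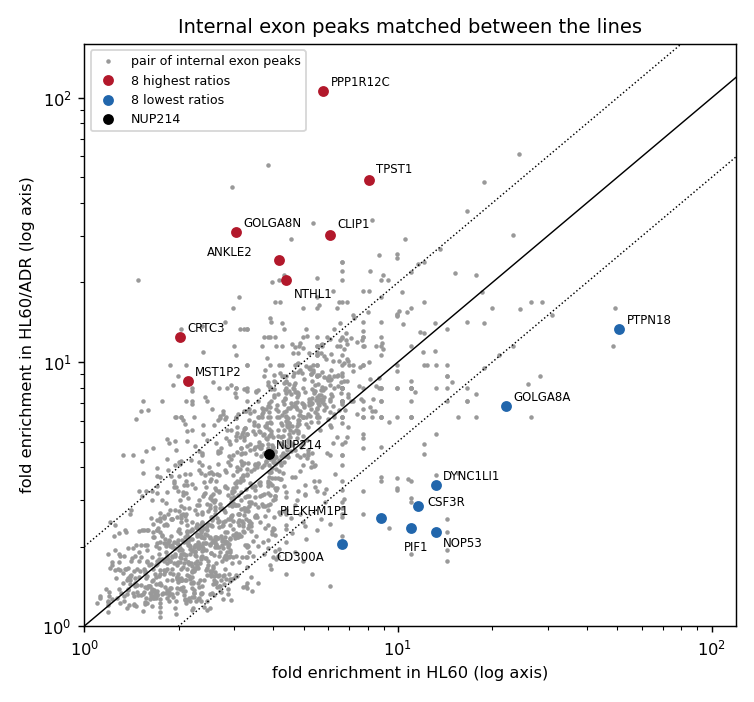
Fold enrichment of 1619 matched internal exon peaks in HL60/ADR (vertical log axis) and HL60 (horizontal log axis), 1 point per pair. The solid line marks equal values and the dotted lines 2-fold differences. Coloured points are the 8 highest and 8 lowest ratios named in the text, and NUP214, in black, lies near the line at 4.47 in HL60/ADR and 3.87 in HL60.

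The ratio depended on the length of exon covered. Taking the shorter of the longest blocks of a pair, in genes at 1 FPKM or more in both lines, pairs under 200 bases had a median log2 ratio of -0.23, and 160 of 465 (34.4%) were higher in HL60/ADR. The median was 0.01 from 200 to under 500 bases, 0.40 from 500 to under 1000 bases and 0.44 for 1000 bases or more, where 75 of 86 pairs (87.2%) were higher in HL60/ADR and 0 were more than 2-fold lower. For 3′ UTR pairs the medians over the same bins were 0.18, 0.35, 0.61 and 0.67, each above that of the internal exon pairs. The negative median of short blocks was not kept at a fold enrichment of 2 or more in both lists, where 258 pairs of genes at any expression had a median of 0.05.

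**Figure D4:**
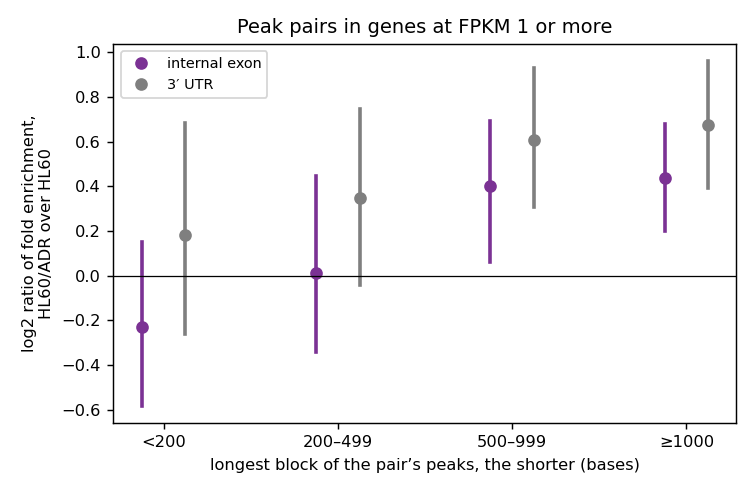
Log2 ratio of fold enrichment (HL60/ADR over HL60) of matched peaks by the shorter of the pair's longest blocks in bases, in genes averaging at least 1 FPKM in each line. Circles are medians and bars run between the quartiles. Internal exon pairs had medians of -0.23, 0.01, 0.40 and 0.44 and lay below 3′ UTR pairs in every bin.

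Expression moved with the ratio too. By the lower of the line means, member pairs in genes under 0.5 FPKM had a median log2 ratio of 0.35, those at 0.5 to 1 FPKM 0.47, those at 1 to 5 FPKM 0.19, those at 5 to 20 FPKM -0.06 and those at 20 FPKM or more -0.19. For 3′ UTR pairs the median stayed positive in each of these bins, at 0.42 for 5 to 20 FPKM. For pairs in genes whose transcripts were called lower, the median log2 ratio was 0.27 (210 pairs, 38 more than 2-fold higher and 3 more than 2-fold lower). For pairs in genes called higher it was -0.08 (80 pairs, 5 more than 2-fold higher and 10 more than 2-fold lower). Whether input depth plays a part in these ratios was not tested.

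The 8 highest ratios in expressed genes, with fold enrichments of 2 or more in both lines, were led by PPP1R12C in exons 5 to 6 of 22 (chromosome 19, 55096313 to 55099028 in HL60/ADR), with 106 in HL60/ADR and 5.78 in HL60, an 18.3-fold ratio. Its transcript gave no call, at 9.71 and 10.3 FPKM in HL60/ADR and 10.6 and 10.5 FPKM in HL60 (log2 fold change -0.07, limma adjusted p = 0.148). CRTC3, a coactivator of CREB, had 12.4 in HL60/ADR and 2.02 in HL60. ANKLE2, which acts in reassembly of the nuclear envelope after mitosis, had 24.4 in HL60/ADR and 4.19 in HL60 in exon 2 of 13 (chromosome 12, 132751274 to 132755303 in HL60/ADR). CLIP1, a microtubule plus-end protein, had 30.2 in HL60/ADR and 6.07 in HL60. NTHL1, a glycosylase that starts base excision repair of oxidised pyrimidines, had 20.4 in HL60/ADR and 4.41 in HL60 in exon 2 of 6 (chromosome 16, from 2046186). The transcript of NTHL1 was called lower, with 2.44 and 2.36 FPKM in HL60/ADR against 6.86 and 7.59 FPKM in HL60 (log2 fold change -1.27 ± 0.06, SE, n = 2 per line; limma adjusted p = 8.67e-05). TPST1 had 48.8 in HL60/ADR and 8.09 in HL60. The other two, GOLGA8N (31.0 in HL60/ADR, 3.04 in HL60) and the pseudogene MST1P2 (8.44 in HL60/ADR, 2.14 in HL60), have near-identical copies. The HL60/ADR values of GOLGA8N, CRTC3, CLIP1 and NTHL1 lay on whole steps, and those of PPP1R12C and TPST1 lay above the 40 steps examined.

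The 8 lowest ratios were more modest. NOP53, a factor of ribosome biogenesis, had 2.27 in HL60/ADR and 13.2 in HL60, a 5.81-fold difference. Then came the DNA helicase gene PIF1, with 2.36 in HL60/ADR and 11 in HL60. CSF3R, the receptor of granulocyte colony-stimulating factor, had 2.85 in HL60/ADR and 11.6 in HL60 (chromosome 1, 36472889 to 36475524 in HL60/ADR). Its transcript rose, with 10.5 and 11.3 FPKM in HL60/ADR against 3.73 and 3.71 FPKM in HL60 (log2 fold change 1.33 ± 0.05, SE, n = 2 per line; limma adjusted p = 4.02e-05). DYNC1LI1, a light intermediate chain of dynein, had 3.42 in HL60/ADR and 13.2 in HL60. PTPN18 had 13.3 in HL60/ADR and 50.8 in HL60. CD300A, an inhibitory receptor of myeloid cells, had 2.04 in HL60/ADR and 6.62 in HL60 in exon 5 of 6. PLEKHM1P1, a pseudogene (2.56 in HL60/ADR, 8.83 in HL60), and GOLGA8A (6.80 in HL60/ADR, 22.1 in HL60) have near-identical copies. The HL60 values of NOP53, PIF1, DYNC1LI1, PLEKHM1P1, GOLGA8A and CD300A lay on whole steps, as did the HL60/ADR value of PTPN18. The HL60 value of PTPN18 lay above the 40 steps examined. A false discovery rate of 0.05 was missed by the HL60/ADR peaks of NOP53 and PIF1 and by the HL60 peaks of PLEKHM1P1 and CD300A.

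Genes with internal exon peaks were more often lower than higher in HL60/ADR, as were genes at large. Of the 2958 tested genes with a member in either line, limma called 219 higher (7.4%, against a background of 8.93% of the 13053 tested genes) and 425 lower (14.4%, against 13.8%). Calls required a log2 fold change beyond 1 in size and an adjusted p below 0.05. Both shares lay near their background. Once the log2 values were centred on each library's median, the split was 325 higher and 263 lower, since the median of all tested genes was -0.18. Shares over all tested genes turned likewise, to 12.7% higher and 8.96% lower, near the 11% and 8.89% of these genes. The libraries of a line are described as biological duplicates, with no word on separate cultures, so the p-values reflect no more than the spread among these libraries. In bulk RNA, fewer transcribing cells and less RNA per cell cannot be told apart.

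The 5 largest rises among genes with a matched pair of internal exon peaks were in CTSG, PSTPIP2, CD300A, SCART1 and COL23A1. CTSG, the azurophil granule protease cathepsin G, stood at 795 and 819 FPKM in HL60/ADR, against 5.57 and 7.87 FPKM in HL60 (log2 fold change 6.73 ± 0.15, SE, n = 2 per line; limma adjusted p = 1.74e-05). Its peak in exon 3 of 5 was weak in both lines, 1.58 in HL60/ADR and 1.92 in HL60. PSTPIP2, a membrane-curving protein of macrophages, stood at 103 FPKM in both HL60/ADR libraries, against 1.45 and 1.35 FPKM in HL60, with fold enrichments of 6.5 in HL60/ADR and 4.41 in HL60. CD300A followed with 72.6 and 73.9 FPKM in HL60/ADR, against 5.26 and 5.65 FPKM in HL60. In HL60 the peaks of PSTPIP2 and CD300A missed a false discovery rate of 0.05 (log10 values of -0.758 and -0.367). SCART1, a scavenger receptor gene, and COL23A1, a transmembrane collagen, rose by 3.45 and 2.58 on the log2 scale. The libraries of the lines did not overlap for any of these 5, which follows from their choice as the largest called rises. At a limma adjusted p under 0.05 alone, 30.9% of the 13053 tested genes were higher in HL60/ADR.

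The largest falls were in SPINT1, E2F8, IL9RP3, CEL and ZC3H4. SPINT1, an inhibitor of serine proteases, stood at 0.558 and 0.402 FPKM in HL60/ADR, against 13.1 and 13.5 FPKM in HL60 (log2 fold change -3.27 ± 0.07, SE, n = 2 per line; limma adjusted p = 1.54e-05). Its fold enrichment was 4.43 in HL60/ADR, at a log10 false discovery rate of -0.955, and 1.33 in HL60. E2F8, a repressor of the E2F family, stood at 1.42 and 1.36 FPKM in HL60/ADR, against 12.8 and 12.7 FPKM in HL60, with peaks of 1.74 in HL60/ADR and 1.93 in HL60. ZC3H4, which restrains non-coding transcription, stood at 3.10 and 2.78 FPKM in HL60/ADR, against 20.7 and 20.8 FPKM in HL60, and had 2 matched peaks within 1.5-fold of each other between the lines. The pseudogene IL9RP3 and the lipase gene CEL fell by 2.51 and 2.50 on the log2 scale.

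**Figure D5:**
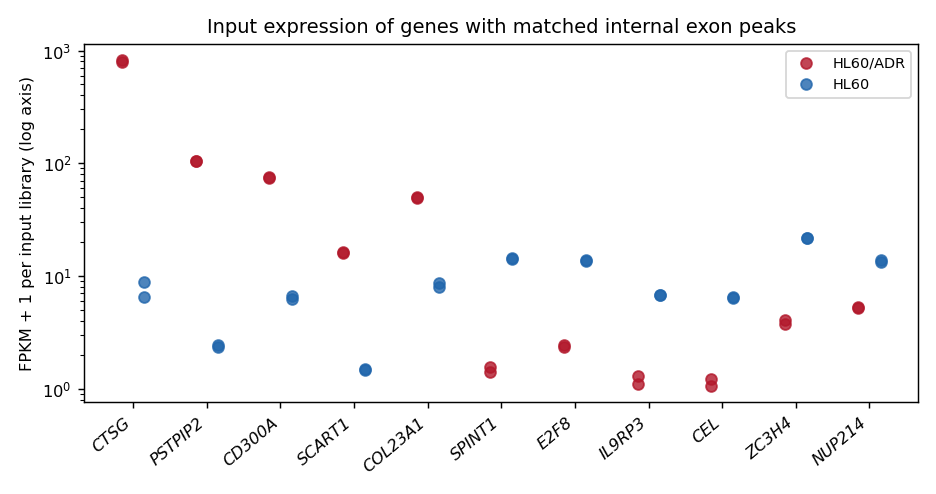
FPKM + 1 per input library (log axis) of the 5 genes with the largest rise, the 5 with the largest fall and NUP214, all with matched internal exon peaks. Each circle is 1 library, HL60/ADR left of HL60. CTSG stood at 795 and 819 FPKM in HL60/ADR and at 5.57 and 7.87 FPKM in HL60.

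Gene lists were described by counts beside all genes with a peak, of which 19.0% in HL60/ADR and 20% in HL60 had an internal exon peak. That background also holds genes with single-exon transcripts, non-coding genes and genes of low expression. It was not matched to any list by exon number or expression, so a share above it was not tested as an enrichment. Counts of pairs in a list stand beside 12.3% more than 2-fold higher and 5.37% more than 2-fold lower over all internal exon pairs, and counts of expression calls beside 8.93% higher and 13.8% lower over all tested genes. Of 103 named genes followed under other settings, RIF1, ERCC4, SMG8, SON, NOTCH2, SOS1, CEP295 and SPON2 lost their calls with median centring. Without HL60 replicate 2, the log2 fold change of NOTCH2 was -0.995, short of the limit of 1. Some called genes listed by name alone, such as INSR and TOP2B, were not followed. The counts of calls per list were not repeated with centring. Chromatin regulators had the highest share among the lists of cell processes, 59 of 91 peak-bearing genes in HL60/ADR (64.8%) and 60 of 90 in HL60 (66.7%), 53 of them in both. Their genes have many exons, with a median of 23 per transcript over their members, against 12 in HL60/ADR and 13 in HL60 over all members. They held 133 members in HL60/ADR and 148 in HL60, of which 29 in HL60/ADR and 21 in HL60 had blocks of 1000 bases or more. For this and the following lists, the values after a gene are those of its strongest internal exon peak in each line, which need not be the same peak. Whole steps are marked in the lists only for pairs beyond 2-fold, so other values given there may also lie on them. The strongest in HL60/ADR were in the SWI/SNF subunit ARID1B (27.7, against 6.92 in HL60), the chromodomain remodeller CHD8 (23.1, against 8.83), the coactivator NCOA2 (16.8, against 6.51) and the 5-methylcytosine dioxygenase TET1 (16.0, against 16.6). Of their 73 pairs, with a median log2 ratio of 0.13, 2 were more than 2-fold higher in HL60/ADR, in NCOA2 (1.37) and KMT2D (1.04). Another 5 were more than 2-fold lower, in CHD2 (-1.59), ASXL1 (-1.43), EP300 (-1.20), ARID4B (-1.18) and CHD1 (-1.03). The HL60/ADR value of NCOA2 and the HL60 values of CHD2 and ASXL1 lay on whole steps. All 8 members of KMT2D were matched, with log2 ratios of -0.26 to 1.04. In expression, limma called 4 of 90 tested chromatin regulators higher (CHD2, KDM3A, KDM4B and SMARCA2) and 14 lower, among them DNMT1, SUZ12 and EED.

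SR and related splicing proteins, which bind exonic enhancers, had internal exon peaks in 11 of 23 peak-bearing genes in HL60/ADR (47.8%) and 10 of 23 in HL60 (43.5%). Several genes of this family carry alternative exons that send their own transcripts to decay. The strongest in HL60/ADR were in SCAF1 (23.8 in HL60/ADR, 10.1 in HL60), TRA2A (15.9 in HL60/ADR, 24.5 in HL60), SON (7.02, in HL60/ADR alone) and BCLAF1 (5.85 in HL60/ADR, 4.35 in HL60). Their 7 pairs had a median log2 ratio of -0.44, and 1, in the spliceosome scaffold gene SRRM2, was more than 2-fold lower (-1.12). Of 25 tested, 0 were called higher and 10 lower by limma. SON was one of them, at 18.5 and 19.6 FPKM in HL60/ADR, against 42.8 and 43.0 FPKM in HL60. Factors of the exon junction complex and of nonsense-mediated decay had members in 8 of 23 genes in HL60/ADR and 9 of 21 in HL60, led in HL60/ADR by the cap-binding subunit NCBP1 (10.6, in HL60/ADR alone), SMG8 (5.15, against 3.78 in HL60), SMG5 (4.20, against 2.88) and ACIN1 (3.83, against 3.95). None of their 8 pairs passed 2-fold, and limma called 3 of 23 lower (RNPS1, SMG8 and UPF1).

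DNA repair genes had members in 19 of 59 genes in HL60/ADR (32.2%) and 20 of 59 in HL60 (33.9%). BRCA2, which acts in homologous recombination, had 5 members in HL60/ADR and 7 in HL60, the strongest at 12.4 in HL60/ADR and 4.59 in HL60. Of its 3 pairs, 2 were more than 2-fold higher in HL60/ADR (log2 ratios of 1.73 and 1.39), both with an HL60/ADR value on a whole step. They were the only such pairs among the 14 of this list, where 0 were more than 2-fold lower. Its transcript was at 0.668 and 0.689 FPKM in HL60/ADR, against 3.67 and 3.50 FPKM in HL60 (log2 fold change -1.45, limma adjusted p = 5.34e-05). ERCC6 (13.2 in HL60/ADR, 4.41 in HL60) and ERCC4 (12.4 in HL60/ADR, 6.92 in HL60) act in nucleotide excision repair, and FANCM (7.78 in HL60/ADR, 5.39 in HL60) is a translocase of the Fanconi pathway. BRCA1 had 7 members in HL60/ADR and 3 in HL60. In expression, limma called 0 of 59 higher and 22 lower.

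Genes of mitosis and the kinetochore had members in 22 of 53 genes in HL60/ADR (41.5%) and 29 of 55 in HL60 (52.7%), and their 25 pairs had a median log2 ratio of -0.05. More than 2-fold higher in HL60/ADR were pairs of the kinesin gene KIF18A (1.68, the HL60/ADR value on a whole step) and of PCNT (1.28), and more than 2-fold lower were pairs of the kinetochore gene NUF2 (-1.75) and of the spindle gene CKAP2 (-1.19). The kinetochore scaffold KNL1 reached 10.9 in HL60/ADR and 3.25 in HL60, and ASPM, a spindle pole protein, 10.5 in HL60/ADR and 5.56 in HL60. Of 55 tested, limma called 0 higher and 15 lower, including MKI67 and TOP2A. Nuclear pore genes had members in 7 of 27 genes in HL60/ADR (25.9%) and 8 of 25 in HL60 (32.0%), led in HL60/ADR by NUP153 (8.41 in HL60/ADR, 4.39 in HL60), RANBP2 (6.25 in HL60/ADR, 4.39 in HL60) and POM121 (6.21 in HL60/ADR, 2.16 in HL60). In HL60 the strongest were in TPR, of the nuclear basket (3.02 in HL60/ADR, 12.1 in HL60), and POM121C (3.59 in HL60/ADR, 10 in HL60). A pair of POM121 was the only one of their 10 beyond 2-fold (log2 ratio 1.61, the HL60/ADR value on a whole step), and POM121 shares sequence with POM121C. Of 31 tested pore genes, 0 were called higher and 14 lower.

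The m6A enzymes themselves held few. Of 11 writer and eraser genes with a peak, 4 had internal exon peaks in each line: ZC3H13 (7.59 in HL60/ADR, 5.23 in HL60), VIRMA (5.78 in HL60/ADR, 5.13 in HL60), FTO (3.25 in HL60/ADR, 2.96 in HL60) and WTAP (1.37 in HL60/ADR, 1.84 in HL60). VIRMA, the scaffold of the writer complex, had the only pair beyond 2-fold, at a log2 ratio of 1.15. METTL3 had no internal exon peak. Its peaks were in its 5′ UTR in both lines and in a last exon in HL60/ADR, and it was the only writer or eraser called higher, at 14.8 and 15.1 FPKM in HL60/ADR against 4.23 and 4.36 FPKM in HL60 (log2 fold change 1.59 ± 0.03, SE, n = 2 per line; limma adjusted p = 1.64e-05). RBM15B was called lower. Among readers, internal exon peaks were found in 3 of 14 genes in HL60/ADR and 4 of 14 in HL60. They included IGF2BP3 (36.4 in HL60/ADR, 2.41 in HL60, not matched to each other), PRRC2A (27.4 in HL60/ADR, 15.7 in HL60) and YTHDC1 (4.90 in HL60/ADR, 3.38 in HL60), and limma called 1 of 13 readers lower, G3BP1. The HL60/ADR value of IGF2BP3 lay above the 40 steps examined.

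In the Notch pathway, 6 of 31 genes in HL60/ADR and 8 of 32 in HL60 had members. POFUT1, which fucosylates Notch receptors, had 6.5 in HL60/ADR and 1.52 in HL60 (log2 ratio 2.10), and MAML2, a coactivator of the Notch complex, 1.88 in HL60/ADR and 11 in HL60 (-2.55, the HL60 value on a whole step). Their transcripts moved the other way, POFUT1 to 5.36 and 5.65 FPKM in HL60/ADR against 16.8 and 17.3 FPKM in HL60, and MAML2 to 1.99 and 1.86 FPKM in HL60/ADR against 0.447 and 0.349 FPKM in HL60. MAML3 (4.29 in HL60/ADR, 4.03 in HL60), DTX2 (3.29 in HL60/ADR, 1.71 in HL60) and the receptor gene NOTCH2 (3.16 in HL60/ADR, 2.41 in HL60) followed. Limma called 4 of 31 genes higher (JAG1, MAML2, MAML3 and RBPJ) and 4 lower (APH1B, NOTCH2, NUMBL and POFUT1). FoxO factors and their upstream kinases had members in 8 of 32 genes in HL60/ADR and 12 of 31 in HL60, led in HL60/ADR by the RAS exchange factors SOS1 (7.10 in HL60/ADR, 3.94 in HL60) and SOS2 (6.32 in HL60/ADR, 4.86 in HL60), with 1 of 5 pairs beyond 2-fold, in EP300 as above. In HL60 the strongest were in the acetyltransferase gene CREBBP (5.52, in HL60 alone) and the kinase gene PDPK1 (5.99 in HL60/ADR, 5.08 in HL60). The median over the members of this list was 1.69 in HL60/ADR and 3.09 in HL60, and that of the log2 ratios of its pairs was -0.23. Of 30 tested, 3 were called higher, MAPK3 and SGK1 among them, and 3 lower (FOXO6, INSR and SOS1). Among drug transporters and anthracycline targets, ABCC10 (7.49 in HL60/ADR, 4.02 in HL60) and TOP2A (2.50 in HL60/ADR, 3.18 in HL60) had members in both lines, and TOP1 (2.88) in HL60 alone. TOP2A, the target of ADR in cycling cells, stood at 37.9 and 38.0 FPKM in HL60/ADR, against 91.4 and 92.3 FPKM in HL60 (log2 fold change -1.25, limma adjusted p = 1.04e-05). Of 12 tested in that list, ABCC1 was called higher, and ABCC4, NQO1, TOP2A and TOP2B lower.

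Of 13 promyelocyte markers, 1, RNASE3, was under 1 FPKM in every library. MPO, the main azurophil granule enzyme, stood at 244 and 252 FPKM in HL60/ADR, against 137 and 135 FPKM in HL60, and ELANE, neutrophil elastase, at 6.46 and 8.05 FPKM in HL60/ADR, against 0.406 and 0.244 FPKM in HL60. The 13 markers summed to 2120 to 2159 FPKM in HL60/ADR and 1057 to 1059 FPKM in HL60. CTSG alone gave 795 and 819 FPKM of this in HL60/ADR, against 5.57 and 7.87 FPKM in HL60. Of 12 tested, 5 were called higher (AZU1, CTSG, ELANE, PRTN3 and RNASE2) and 1 lower (CEBPA). Short of a call, MPO, CD33 and LYZ were higher and MS4A3 and CEBPE lower, while SRGN was level. MS4A3 stood at 12.7 and 12.4 FPKM in HL60/ADR, against 22.9 and 22.5 FPKM in HL60. Of the 12 T and NK cell markers, 10 stayed under 1 FPKM in every library, among them CD3E and CD3G. The list summed to 96.1 to 98.7 FPKM in HL60/ADR and 31.9 to 34.4 FPKM in HL60. CD3D alone was called higher, with 54.7 and 55.6 FPKM in HL60/ADR, against 0.469 and 0.617 FPKM in HL60. B cell markers summed to 5.63 to 6.99 FPKM in HL60/ADR and 17.8 to 18.2 FPKM in HL60, with CD79B called lower. The erythroid and megakaryocyte markers in the table, EPOR and ITGA2B, summed to 2.91 to 2.97 FPKM in HL60/ADR and 7.28 to 7.31 FPKM in HL60, with ITGA2B called lower. Epithelial and fibroblast markers summed to 2.44 to 14.1 FPKM in HL60/ADR and 15.7 to 20.8 FPKM in HL60, with LUM called lower and 6 of 10 genes under 1 FPKM in every library. Replicate 1 stood apart in both lines for the keratins: KRT18 was at 5.38 and 0.0398 FPKM in HL60/ADR replicates 1 and 2, and at 2.23 and 0 FPKM in HL60 replicates 1 and 2. KRT8, KRT19 and EPCAM were likewise higher in replicate 1 than in replicate 2 of each line. Internal exon peaks were found in the promyelocyte markers CD33 (4.97 in HL60/ADR, 3.6 in HL60) and CTSG. Among T and NK cell markers they were in CD247 (11.5 in HL60/ADR, 7.73 in HL60), PRF1 (7.98) and CD3D (1.09), the last 2 in HL60/ADR alone. CD79B had one in HL60 alone (1.37). The CD3D value was near the lowest of all HL60/ADR members, 1.08. Both CD247 values lay on whole steps, and CD247 and PRF1 stayed under 1 FPKM in every library. The HL60 peak of CD247 had a log10 false discovery rate of -0.605, in a gene at 0 FPKM in both HL60 libraries. The part of other cell types in the peak lists was not tested.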

How the data were processed

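RNA of HL60/ADR and HL60 cells had been profiled with MeRIP-seq, with 2 IP and 2 input libraries per line. The authors used fastp for trimming and HISAT2 for alignment to the human genome of Ensembl (GRCh38), called peaks with exomePeak at p under 0.05, with 1 list per line over both replicates, and annotated them with ChIPseeker. The deposited lists hold a fold enrichment per peak, which is the ratio that the authors obtained from IP and input reads, and a caller p-value. They also hold a deposited score, the log10 of that p-value or of its false discovery rate. The deposited FPKM per gene and input library were computed by the authors with StringTie. The methods speak of averaging replicate values, and no peak value per replicate was used. The depth behind an FPKM is not known, and raw counts and values of single IP libraries were not used here. Columns of per-sample values left unused numbered 0. The authors' own comparisons in the files (fold changes and p-values between the lines) were not used.

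Peaks were matched with bedtools 2.31.1 when they shared at least 1 base of their exonic blocks, on either strand, and compared in Python 3.11.15 (pandas 2.3.3, numpy 2.4.6) with figures in matplotlib 3.10.9. Rows of 1 list that overlap each other (292 members in HL60/ADR, 290 in HL60) were kept apart. Of the member pairs, 32 named different genes in the lists, and a pair took the gene of its HL60/ADR peak. A fold enrichment was counted as a whole step when it equalled a multiple from 6 to 40 of the step at its printed digits. Smaller and larger values were not examined. For expression, log2(FPKM + 1) values of the 13053 genes averaging at least 0.5 FPKM were fitted by cell line alone in limma 3.58.1 (R 4.3.3, trended variance, two-sided), and p-values were adjusted over all of them by Benjamini-Hochberg. Fold changes on this scale understate the change of low genes. The code was tested on simulated data.

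The members and the 16 gene lists were chosen with earlier results of these data known, so a list's counts are descriptions. Genes were named by a rule: the 8 highest and 8 lowest ratios among pairs in genes at 1 FPKM or more in both lines with both fold enrichments at 2 or more; the 5 strongest members per line; the 5 genes with most members per line, with ties; the 5 strongest unmatched members per line; the 5 largest rises and falls of expression among genes with a pair; the 5 longest blocks in pairs; up to 4 genes per list and any pair of a list beyond 2-fold; NUP214 and METTL3. A gene that met this rule is not reported here. BRCA1, MKI67, TOP1, TPR, POM121C, CREBBP, the promyelocyte, T, NK, B, erythroid, epithelial and fibroblast markers and called genes listed by name alone were added after their values were seen. Annotated exon lengths and sequence motifs of peaks had been planned and are not analysed here, so block lengths stand in for exon lengths. Alternatives were tried for the peak threshold, expression limit, overlap, strand, scaling, pseudocount, filter, trend, replicate block and each library.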

Additional observations from a re-analysis of the deposited data

How the results depend on the processing

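At a fold enrichment of 2 or more, internal exons held 10.2% of the HL60/ADR and 10.2% of the HL60 peaks, with medians of 5.76 in HL60/ADR and 4.21 in HL60; overlap was 67.1% in HL60/ADR and 62.3% in HL60, 15.3% of pairs were more than 2-fold higher in HL60/ADR, and the median log2 ratios were 0.27 for member pairs, 0.50 for 3′ UTR pairs and 0.0465 for pairs of blocks under 200 bases. With stricter peaks (false discovery rate of at most 1e-05 and fold enrichment of 4 or more) the shares were 8.31% in HL60/ADR and 8.57% in HL60, the medians 7.09 in HL60/ADR and 5.52 in HL60, the overlap 57.8% in HL60/ADR and 74.7% in HL60, the pairs 14.9% higher and 1.99% lower, the log2 medians 0.43 for member pairs, 0.62 for 3′ UTR pairs and -0.25 for 8 pairs of short blocks, and chromatin regulators with members 43.0% in HL60/ADR and 45.7% in HL60, against 10.7% in HL60/ADR and 10.4% in HL60 of all genes with a stricter peak. In genes at 1 FPKM or more in both lines, the share in HL60/ADR was 10.4%, the medians 2.75 in HL60/ADR and 2.34 in HL60, the overlap 80.6% in HL60/ADR and 62.7% in HL60, the pairs more than 2-fold higher 7.33%, and the log2 medians 0.0275 for member pairs and -0.23 for short blocks. A reciprocal overlap of 50% left 42.6% of the HL60/ADR and 38.2% of the HL60 members matched, 4.25% of pairs lower and a log2 median of 0.46 for 3′ UTR pairs, and matching on the same strand left 70.3% in HL60/ADR and 58.8% in HL60. Division by the median ratio gave 6.30% higher and 13.7% lower, and log2 medians of -0.25 for member pairs, 0.0776 for 3′ UTR pairs, -0.49 for short blocks and 0.085 for blocks of 500 bases or more.

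Alternatives chosen after seeing the data were the overlap of whole spans, which moved no value beyond its interval, and the removal of 2 kinds of peak. Without peaks on whole steps, the shares were 11.4% in HL60/ADR and 12.3% in HL60, the medians 2.88 in HL60/ADR and 2.59 in HL60, the overlap in HL60 55.3%, the pairs 7.66% higher and 3.36% lower, and the 3′ UTR log2 median 0.41. Without peaks whose exon belongs to another gene, the shares were 9.94% in HL60/ADR and 10.6% in HL60. In all of these settings the median log2 ratio of member pairs stayed below that of 3′ UTR pairs. The cause of the turned order of overlap was not tested.

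Expression calls among genes with members were 343 higher and 654 lower at a pseudocount of 0.1 (1778 and 2712 over all genes), and 263 lower after median centring, which raised fold changes by 0.21. The replicate numbers were not taken to pair the libraries (correlation of deviations over all tested genes 0.04), although epithelial markers were higher in replicate 1 of both lines, and the replicate block gave 218 higher and 425 lower. Leaving out a library gave 216 to 229 higher and 426 to 439 lower, with the lone library assumed to vary like the other line's. Of 103 named genes, centring reversed ASXL1 (0.0084), ERCC6 (0.0707), FTO (0.20), NUF2 (0.0923), PPP1R12C (0.14) and STARD9 (0.17), none of them called, and took the call from 8. Leaving out a library gave FTO values of -0.0431 to 0.0226, above 0 without HL60 replicate 2 and without HL60/ADR replicate 1 (0.000873). SPON2 lost its call without HL60 replicate 1 or HL60/ADR replicate 2, and CEP295 and NOTCH2 without HL60 replicate 2. The block changed no call of a named gene.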
